A study of Mus musculus with 20 samples.

Results

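The collagens, laminins and related matrix genes of mouse gastrocnemius, a calf muscle, were followed across 4 groups of samples, together with Aebp1, which encodes a collagen-binding secreted protein. The genes were chosen by symbol: numbered collagen chains, laminin chains, matrix metalloproteinases (MMPs), their tissue inhibitors (TIMPs) and lysyl oxidases, plus Aebp1, Fn1, Sparc, Postn, Fbn1, Dcn, Bgn, Lum and Nid1. Of the 53311 rows of the count table, 94 matched, and 66 of these had at least 10 counts in at least 5 libraries. All 66 were tested. The 28 genes left out had at most 18 counts in any library, among them Timp1 (at most 8 counts), Mmp9 (at most 5) and Col2a1 (at most 4). At the edge of the rule, Mmp23 reached 10 counts in 5 libraries and Col8a2 in 6, while Loxl4 and Col28a1 reached it in 4.

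The matrix of muscle is laid down in layers around each fibre and around bundles of fibres. Fibril-forming collagens give it tensile strength and are cross-linked by lysyl oxidases. Laminins and type IV collagen build the basement membrane that sheathes every fibre, to which the fibre is tied by integrins and the dystroglycan complex. MMPs cut matrix proteins, and TIMPs inhibit the MMPs. Most fibrillar collagen of muscle is made by fibroblasts and tendon cells, while basement membrane chains are also made by muscle fibres and endothelial cells.

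All samples carried the genotype Cre+:iMSBmal1 fl/fl, that is, Cre and floxed alleles of Bmal1, the clock transcription factor encoded by Arntl. They were given vehicle or the treatment labelled iMSBmal1KO. Muscles were collected at zeitgeber time 13 from mice that had not exercised, or 1 h after a treadmill run of 30 min. With 5 samples each, the 4 groups are called vehicle at rest, exercised vehicle, knockout-labelled at rest and exercised knockout-labelled. The labels do not name the promoter that drives Cre, the inducing agent, the age of the mice or the floxed exons, and the description label of the exercised knockout-labelled samples mentions training, whereas their titles and treatments name acute exercise. The study asks what loss of muscle Bmal1 and a single bout of exercise do to expression. Nothing in the labels says outright that the 5 samples of a group were 5 animals, so p-values measure the spread between these samples.

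Libraries held 8045154 to 11269812 counts. Arntl itself was not lower in knockout-labelled muscle: it ranged from 7.90 to 21.4 CPM (counts relative to a common library size after TMM scaling) over all libraries, with an averaged log2 fold change of 0.22 (edgeR adjusted p 0.446). The samples are therefore called knockout-labelled, and every genotype direction rests on the labels. Markers of muscle fibres summed to 97767 to 191641 CPM. Summed slow-fibre markers ran from 48.3 to 3917 CPM and spread widely within each of the 4 groups. Fibroblast markers summed to 101 to 156 CPM in vehicle at rest, 105 to 180.3 in vehicle after exercise, 125 to 164 in knockout-labelled muscle at rest and 139 to 175 after exercise. None of the lists for fibroblasts (10 genes tested), tendon (7), endothelium (9), pericytes and smooth muscle (8), Schwann cells (4), leukocytes (8), satellite cells (3), slow fibres (8), fat (5) or muscle fibres (6) had a called gene between knockout-labelled and vehicle muscle. Of 5 blood genes, Hba-a2 was called lower in knockout-labelled than in vehicle muscle after exercise. Of all genes, 3.86% were called at rest, 6.42% after exercise and 11% on average. Markers of a list could still share a direction. Slow-fibre markers above 0 were 8 of 8 at rest (median log2 fold change 0.68) and 1 of 8 after exercise (-0.39). For fat these were 1 of 5 (-0.37) and 0 of 5 (-0.73), and for blood 3 of 5 (0.04) and 0 of 5 (-0.99). No marker listed was at 0 in all libraries, and in bulk tissue fewer cells of a type and less RNA per cell cannot be told apart.

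Levels were compared between genes as CPM per kilobase of annotated exon. Mmp11, the gene for stromelysin-3, stood highest at 198 CPM per kb and took 14.7% to 30.4% of the matrix gene counts of a library. It shares 5.58% of its exon bases with Chchd10 on the opposite strand, a gene of 616 CPM, and whether reads were assigned by strand is not given, so its level is uncertain. Then came Dcn, the collagen-binding proteoglycan decorin (38.7 CPM per kb), Sparc (31.4), Aebp1 (21.6), Timp2 (20.5), Lamb2 (18.3) and Timp3 (15.6). The place of Aebp1 is that of its mean over all libraries and describes neither treatment. Its vehicle libraries held 29.1 to 45.4 CPM per kb and its knockout-labelled ones 5.18 to 7.88. Timp3 shares 21.28% of its exon bases with Syn3 on the other strand. Lamc1 (9.09 CPM per kb), Col4a2 (8.32) and Col4a1 (8.19) completed the top 10. The main fibrillar chains were lower, with Col3a1 at 5.35, Col1a2 at 5.25 and Col1a1 at 4.20 CPM per kb, and Col11a1 was lowest at 0.0767. Among these top 10 the library ranges of neighbours overlapped, except between Mmp11 (114 to 233 CPM per kb) and Dcn (22.4 to 52.1) and between Timp3 (11.6 to 18.6) and Lamc1 (7.40 to 11.03). The Aebp1 range spans both treatments, and no Aebp1 library lay within the Timp2 range (16.1 to 28.6).

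**Figure D1:**
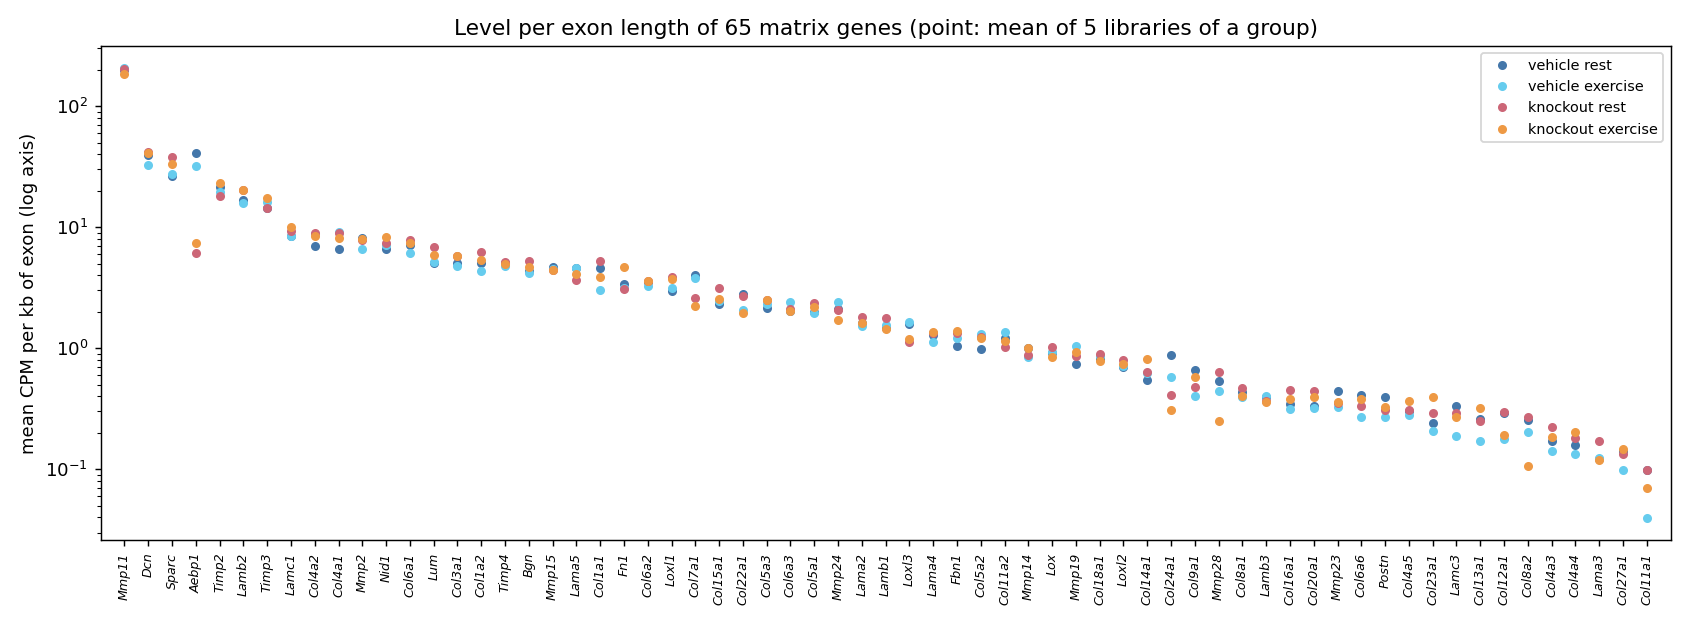
Mean level per exon length (CPM per kb of exon, log axis) of 65 matrix genes, ordered by their mean over all libraries, with 1 point per group of 5 libraries. Aebp1 is the gene among the most abundant whose vehicle points stand far above its knockout-labelled points.

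Between knockout-labelled and vehicle muscle, 7 of the 66 matrix genes differed when both states were averaged. Aebp1, Col24a1, Col7a1 and Loxl3 fell, and Sparc, Lamb2 and Lamc1 rose. These 7 are 10.6% of the genes, and 11% of all 13560 genes tested were called in the same comparison (edgeR quasi-likelihood test, Benjamini-Hochberg adjusted p under 0.05). The 3 that rose are 4.55% (5.18% of all genes) and the 4 that fell 6.06% (5.78% of all genes). At rest 3 were called (4.55%, against 3.86% of all genes), 1 higher (1.52%, against 1.8%) and 2 lower (3.03%, against 2.06%). After exercise 3 were called (4.55%, against 6.42% of all genes), 1 higher (1.52%, against 2.67%) and 2 lower (3.03%, against 3.75%). The shares of matrix genes called were near those of all genes. Aebp1 had the largest change of the 66 in each of these 3 comparisons.

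Aebp1 encodes a protein whose secreted form, aortic carboxypeptidase-like protein, binds fibrillar collagen. The 5 vehicle libraries at rest held 149.6, 143, 168, 179.6 and 184 CPM, and the 5 knockout-labelled libraries at rest 27.7, 23.7, 21.3, 21.03 and 30.9 CPM. After exercise vehicle libraries held 118, 123, 119.5, 137 and 157 CPM and knockout-labelled libraries 31.2, 27.3, 29.5, 30.8 and 31.96 CPM. The lowest vehicle library was above every knockout-labelled library in both states. Means were 165 ± 18.3 against 24.9 ± 4.29 CPM at rest and 131 ± 16.3 against 30.2 ± 1.82 CPM after exercise (SD, n = 5 each). The log2 fold change was -2.73 (SE 0.12, edgeR adjusted p 7.71e-14) at rest, which leaves 0.151 of the vehicle level. It was -2.12 (SE 0.11, edgeR adjusted p 1.17e-11) after exercise and -2.42 (SE 0.08, edgeR adjusted p 3.55e-16) on average. In every alternative setting run and with each library left out, all 3 calls held. The fall was known when these genes were chosen, so it is described here and is not independent evidence.

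Aebp1 counts made up 5.97% to 7.97% of all counts on the 66 genes in vehicle at rest, and 0.819% to 1.31% in knockout-labelled muscle at rest. After exercise these shares were 4.87% to 7.04% and 1.25% to 1.43%. Its exons overlap those of no other annotated gene. The nearest gene, Pold2, a subunit of DNA polymerase delta, lies 92 bases away on the opposite strand. Pold2 had an averaged log2 fold change of 0.07 (SE 0.07, edgeR adjusted p 0.603).

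**Figure D2:**
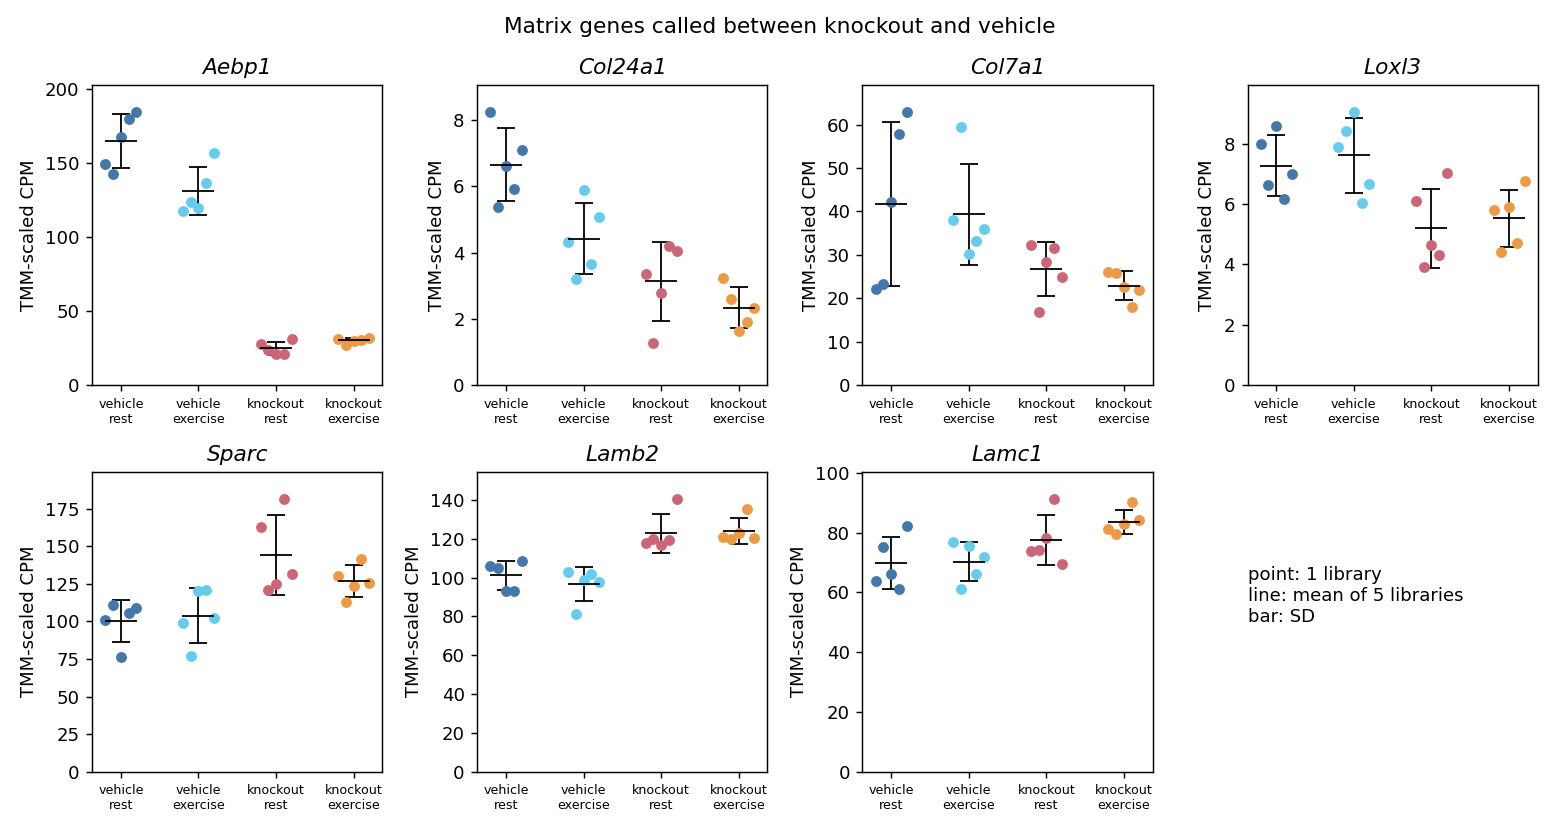
TMM-scaled CPM of the 7 matrix genes called between knockout-labelled and vehicle muscle, 1 point per library, with the mean of 5 libraries (line) and the SD (bar). For Aebp1 all 10 vehicle libraries lie above all 10 knockout-labelled ones, and for Lamb2 all 10 lie below, whereas the other 5 genes overlap when the states are pooled.

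Col24a1, a minor fibril-forming collagen chain, fell as well, from a low level. Vehicle libraries at rest held 8.24, 5.37, 6.62, 5.91 and 7.11 CPM and knockout-labelled ones 3.36, 1.26, 2.77, 4.21 and 4.05 CPM, on 48 to 71 and 11 to 39 counts. These groups did not overlap, and the log2 fold change was -1.08 (SE 0.25, edgeR adjusted p 0.0105). After exercise vehicle libraries held 4.31, 3.19, 5.88, 3.67 and 5.06 CPM and knockout-labelled ones 3.24, 2.59, 1.64, 1.89 and 2.31 CPM, which overlapped at 3.19 and 3.24 CPM. The log2 fold change after exercise was -0.92 (SE 0.26, edgeR adjusted p 0.0327), and on average it was -0.998 (SE 0.18, edgeR adjusted p 4.32e-04). The call after exercise was lost without vehicle replicate 1, 3 or 5 or knockout-labelled replicate 3, 4 or 5 of the exercised groups (adjusted p up to 0.0763). With scaling by library size alone it was also lost (edgeR adjusted p 0.0539).

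The 250 bases before the RefSeq start of each of these 2 genes are shown because BMAL1 acts at promoters through the E-box CACGTG and they had the largest falls (build GRCm38.p6, both on the plus strand, 5′ to 3′). Capitals mark AGGTCA, the half-site read by the clock-linked ROR and REV-ERB receptors.
Aebp1, chr11:5861616-5861865: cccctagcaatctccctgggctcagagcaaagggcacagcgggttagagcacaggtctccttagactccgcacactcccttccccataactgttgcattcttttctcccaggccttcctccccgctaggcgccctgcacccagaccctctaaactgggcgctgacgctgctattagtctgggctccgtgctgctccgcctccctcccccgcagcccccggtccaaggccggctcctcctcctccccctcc
Col24a1, chr3:145292222-145292471: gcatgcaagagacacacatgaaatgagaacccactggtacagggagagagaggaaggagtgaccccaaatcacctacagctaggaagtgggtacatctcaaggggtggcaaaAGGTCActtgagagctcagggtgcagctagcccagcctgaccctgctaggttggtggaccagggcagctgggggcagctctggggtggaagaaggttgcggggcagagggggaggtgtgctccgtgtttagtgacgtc
The Aebp1 window held none of the 4 motifs searched on both strands, which were the E-box CACGTG, its variant CACGTT, the D-box TTATGTAA and AGGTCA. The Col24a1 window held AGGTCA with its first base 138 bases before the start, and no other of the 4. RefSeq windows of this length were found for 46 of the 66 matrix genes. CACGTG stood in 0 of their 52 windows, against 6.02% of 32851 windows of all genes. CACGTT stood in 3.85% of the matrix gene windows and in 3.85% of all. TTATGTAA stood in none, against 0.819% of all, and AGGTCA in 15.4%, against 14%. Matches of different motifs may overlap, and a match or the lack of one is only a description of these letters. Bases outside these windows were not searched.

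Among the collagens of microfibrils and anchoring fibrils, Col7a1 fell on average. Its product forms the anchoring fibrils that fasten basement membranes to the matrix below. Vehicle libraries at rest held 22.04, 23.4, 42.2, 57.8 and 62.8 CPM and knockout-labelled ones 32.3, 16.9, 28.3, 31.5 and 24.9 CPM, so 2 vehicle libraries lay within the knockout-labelled range. After exercise vehicle libraries held 37.95, 59.5, 30.2, 33.1 and 35.9 CPM and knockout-labelled ones 26.04, 25.9, 22.5, 18.1 and 21.9 CPM, with no overlap. The averaged log2 fold change was -0.71 (SE 0.19, edgeR adjusted p 0.0239), while neither state passed alone (adjusted p 0.279 at rest and 0.110 after exercise). The averaged call was lost without vehicle replicate 4 at rest (edgeR adjusted p 0.0509), with no filter on low counts (0.0525), with the replicate number as a block (0.0653) and with the fibroblast marker score as a covariate (0.0792). None of the type VI chains Col6a1, Col6a2, Col6a3 and Col6a6 was called, and their averaged log2 fold changes ran from -0.11 to 0.21.

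Of 4 lysyl oxidases, which cross-link collagen and elastin, Loxl3 fell on average, where 5.78% of all genes were called lower. At rest, vehicle libraries held 8.004, 6.63, 8.58, 6.15 and 6.995 CPM and knockout-labelled ones 6.09, 3.91, 4.65, 4.31 and 7.03 CPM. After exercise they held 7.90, 8.42, 9.04, 6.04 and 6.65 and 5.79, 4.43, 5.91, 4.72 and 6.77 CPM. The groups overlapped in both states. The averaged log2 fold change was -0.47 (SE 0.12, edgeR adjusted p 0.0137), and the call held in all alternatives run. Loxl3 shares 11.62% of its exon bases with Htra2 on the opposite strand, a gene with an averaged log2 fold change of -0.05 (edgeR adjusted p 0.747). Lox, Loxl1 and Loxl2 were not called, with averaged log2 fold changes of 0.01, 0.31 and 0.12. Loxl1 libraries did not overlap at rest, at 8.24 to 10.9 CPM in vehicle and 11.2 to 14.8 CPM in knockout-labelled muscle (adjusted p 0.240).

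Sparc, also known as osteonectin, is a collagen-binding glycoprotein of the matrix, and it rose. Vehicle libraries at rest held 101, 111, 76.2, 106 and 109 CPM and knockout-labelled ones 163, 121, 125, 181 and 131 CPM, without overlap. After exercise vehicle libraries held 98.8, 76.7, 120.4, 121 and 102 CPM and knockout-labelled ones 130.1, 113, 124, 142 and 126 CPM, which overlapped. The log2 fold change was 0.52 (SE 0.13, edgeR adjusted p 0.0223) at rest, 0.29 (SE 0.13, edgeR adjusted p 0.220) after exercise and 0.41 (SE 0.09, edgeR adjusted p 0.00460) on average. The call at rest was lost without vehicle replicate 3 (adjusted p 0.0757), knockout-labelled replicate 1 (0.0633) or knockout-labelled replicate 4 (0.0833). The difference between the changes in both states had an edgeR adjusted p of 0.942.

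Of the 10 laminin chains, Lamb2 and Lamc1 rose on average and none fell, beside 5.18% of all genes called higher and 5.78% lower, and the Lamc1 call was lost without any 1 of 18 libraries. Lamb2 encodes the beta 2 chain, which is concentrated at the neuromuscular junction. Its libraries at rest held 106, 105, 93.2, 93.01 and 108 CPM in vehicle and 118, 119.6, 117, 119 and 140.5 CPM in knockout-labelled muscle. After exercise they held 103, 81.2, 98.6, 102 and 97.6 CPM and 121, 119.7, 123, 135 and 120.1 CPM. All 10 knockout-labelled libraries lay above all 10 vehicle libraries. The log2 fold change was 0.28 (SE 0.08, edgeR adjusted p 0.0564) at rest, 0.36 (SE 0.08, edgeR adjusted p 0.00782) after exercise and 0.32 (SE 0.06, edgeR adjusted p 5.12e-04) on average. The call on average and the call after exercise held in all alternatives run. Usp19, which lies 72 bases from Lamb2 on the same strand, had an averaged log2 fold change of 0.05 (edgeR adjusted p 0.658).

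Lamc1 encodes the gamma 1 chain shared by most laminins. At rest, vehicle libraries held 63.9, 75.2, 66.1, 61.3 and 82.1 CPM and knockout-labelled ones 73.98, 74.1, 78.2, 91.2 and 69.6 CPM, which overlapped. After exercise they held 76.7, 61.2, 75.5, 66.01 and 71.8 and 81.1, 79.5, 82.8, 90.2 and 84.1 CPM, which did not. The averaged log2 fold change of 0.20 (SE 0.07, edgeR adjusted p 0.0497) lay at the threshold. It passed without replicate 5 of vehicle at rest or of knockout-labelled muscle at rest, and was lost without any 1 of the other 18 libraries (adjusted p up to 0.106) and in 6 of 10 other settings (up to 0.140). Lama5, an alpha chain of vessel basement membranes, had an averaged log2 fold change of -0.25 (SE 0.09, edgeR adjusted p 0.0654). For Lama2, the main alpha chain around adult muscle fibres, it was 0.13 (SE 0.10, edgeR adjusted p 0.483).

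No other matrix gene was called between knockout-labelled and vehicle muscle in the main fit. The type IV chains Col4a1 and Col4a2, which form the common network of basement membranes, did not overlap at rest. At rest, vehicle libraries held 50.6, 51.7, 44.5, 43.2 and 57.96 CPM of Col4a1 and knockout-labelled ones 66.5, 62.5, 64.5, 69.2 and 72.6 CPM. For Col4a2 they held 45.4, 47.7, 39.4, 46.6 and 53.1 and 55.7, 54.01, 57.6, 68.04 and 61.97 CPM. The log2 fold changes at rest were 0.44 (SE 0.16, edgeR adjusted p 0.170) for Col4a1 and 0.36 (SE 0.12, edgeR adjusted p 0.116) for Col4a2, but both genes were called when only the groups at rest were fitted. After exercise they were -0.17 and -0.07, with overlapping libraries. In all, 7 matrix genes did not overlap at rest (10.6%, against 5.8% of all genes) and 4 after exercise (6.06%, against 6.29%). Over both states together Aebp1 and Lamb2 did not overlap, which is 3.03% of the 66 genes, against 1.77% of all genes.

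The main chains of fibrillar collagen were not called. Col1a1 had an averaged log2 fold change of 0.27 (SE 0.16, edgeR adjusted p 0.345), Col1a2 of 0.29 (SE 0.12, edgeR adjusted p 0.157) and Col3a1 of 0.24 (SE 0.14, edgeR adjusted p 0.334). Of the 10 fibril-forming chains 8 were fitted above 0 on average, with a median of 0.22, but Col24a1 alone was called. All 5 type IV chains were fitted above 0 (median 0.20), as were 8 of 10 FACIT, transmembrane and other collagens (median 0.18), and none of these was called. Of the 11 MMPs and TIMPs 5 were above 0, with a median near 0 and a range from -0.29 to 0.11. Among the 9 glycoproteins and proteoglycans, Dcn was at 0.22 (SE 0.11, edgeR adjusted p 0.212), Nid1, the linker of laminin and type IV collagen, at 0.19 (SE 0.13, edgeR adjusted p 0.408) and Fn1, fibronectin, at 0.21 (SE 0.16, edgeR adjusted p 0.460).

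Over all 66 genes the averaged log2 fold change had a median of 0.13, against 0.01 over all genes tested, and 48 (72.7%) were above 0, against 52% of all genes. Of the fibroblast markers 8 of 10 were above 0, with a median of 0.17 and none called. With the fibroblast marker score as a covariate the matrix genes' median was 0.06, with 42 above 0. The sign was the same at rest and after exercise for 42 of 66 genes (63.6%), against 65.1% of all genes. Exercised vehicle replicate 2, which enters the averages for genotype and for exercise, was the lowest library for several matrix genes, as given below.

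**Figure D3:**
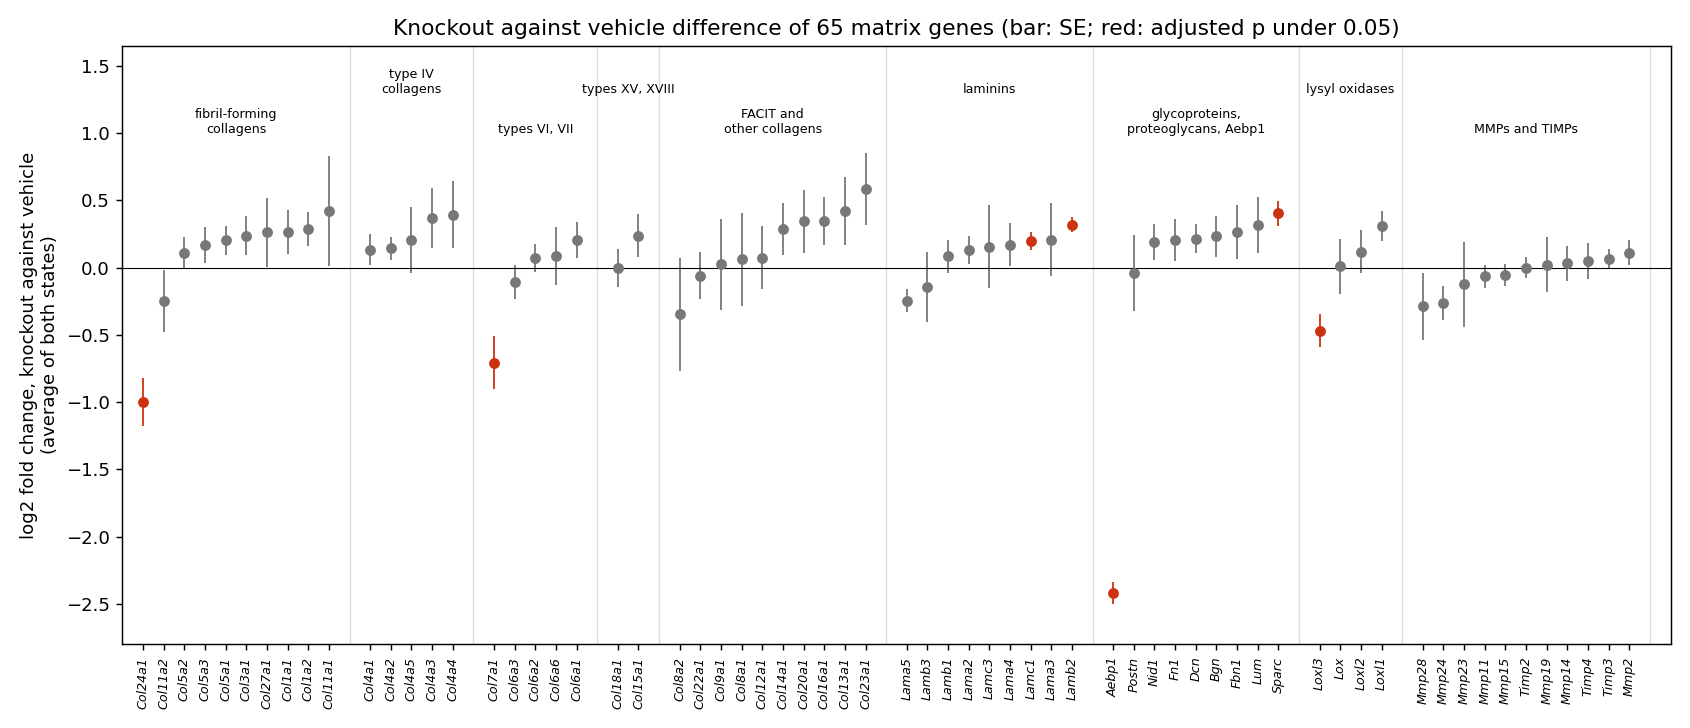
Log2 fold change of knockout-labelled against vehicle muscle, averaged over rest and exercise, for 65 matrix genes by role (point: fitted value, bar: SE, red: edgeR adjusted p under 0.05). Aebp1 lies at -2.42, away from the rest, and Col24a1 at -0.998 is next.

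**Figure D4:**
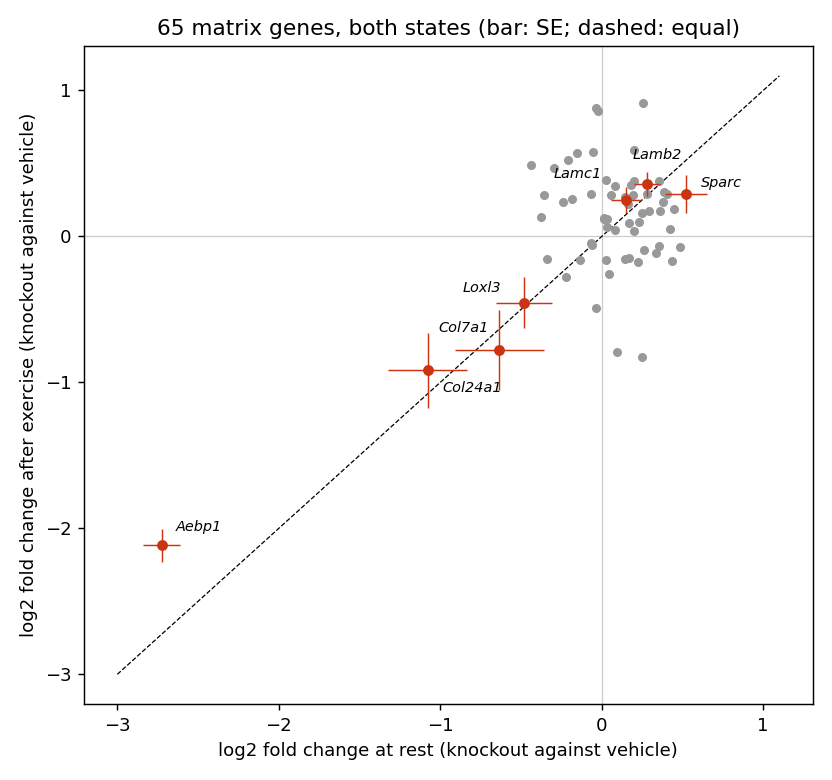
Log2 fold change of knockout-labelled against vehicle muscle at rest (x axis) and after exercise (y axis) for 65 matrix genes, with the 7 called on average in red with their SE and the line of equal change dashed. Aebp1 lies above the line, at -2.73 and -2.12, and the uncalled genes lie within 1 log2 unit of 0 on both axes.

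Exercise changed no matrix gene past the threshold 1 h after the run. In vehicle muscle 0 of 66 were called, against 0.804% of all genes, 0 by DESeq2, and 9 matrix genes had an unadjusted p under 0.05 (8.92% of all genes did). In knockout-labelled muscle 0 were called, against 0 of all genes and 0 by DESeq2, with 6 at an unadjusted p under 0.05 (4.71% of all genes). Averaged over both treatments 0 were called, against 0.634% of all genes and 0 by DESeq2, with 8 at an unadjusted p under 0.05 (8.28% of all genes). Out of 66, each of these counts at an unadjusted p under 0.05 was a larger share than that of all genes, a difference that was not tested. The averaged median was -0.08, and 20 of 66 genes were above 0 (30.3%), against 49.6% of all genes. Of the slow-fibre and tendon markers 0 of 8 and 0 of 7 were above 0, with medians of -0.91 and -0.87, and none was called. With the slow-fibre score as a covariate the matrix genes' median was -0.02, with 28 above 0.

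The smallest p-values of the exercise comparisons in vehicle were those of Aebp1, Col4a2 and Col4a1. Aebp1 was at -0.33 (SE 0.11, edgeR adjusted p 0.214), with libraries of 143 to 184 CPM at rest and 118 to 157 CPM after exercise. Col4a1 was at 0.45 (SE 0.16, edgeR adjusted p 0.312) and Col4a2 at 0.34 (SE 0.12, edgeR adjusted p 0.305). Exercised vehicle libraries of Col4a1 held 86.5, 44.04, 75.3, 73.6 and 59.04 CPM, so 1 of them, replicate 2, lay within the range at rest and the other 4 above it. In knockout-labelled muscle these were Mmp28, Timp2 and Fn1. Mmp28, the protease epilysin, held 1.99, 2.76, 1.88, 3.02 and 2.77 CPM at rest and 0.463, 2.05, 1.20, 0.405 and 0.686 CPM after exercise, on 16 to 28 and 3 to 19 counts, a log2 fold change of -1.34 (SE 0.36, edgeR adjusted p 0.813). Fn1 held 29.7, 44.01, 34.9, 36.9 and 33.8 CPM at rest and 55.3, 57.5, 51.97, 59.2 and 50.8 CPM after exercise. Fn1 was the 1 matrix gene of 66 (1.52%, against 0.848% of all genes) whose libraries did not overlap between these groups, at 0.62 (SE 0.22, edgeR adjusted p 1.000). In vehicle no matrix gene had groups that did not overlap (2.04% of all genes did).

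Averaged over both treatments the smallest p-values were those of Mmp28, Col1a1 and Timp3. Col1a1 encodes the main chain of type I collagen. Vehicle libraries held 28.5, 34.4, 20.6, 30.1 and 38.2 CPM of Col1a1 at rest and 17.95, 10.5, 28.9, 21.2 and 20.9 CPM after exercise. Knockout-labelled libraries held 36.9, 28.3, 24.02, 53.5 and 29.9 CPM at rest and 25.3, 21.2, 24.8, 24.6 and 30.9 CPM after exercise. Rest and exercise overlapped in both treatments, and the averaged log2 fold change was -0.53 (SE 0.16, edgeR adjusted p 0.212). For Mmp28 it was -0.81 (SE 0.25, edgeR adjusted p 0.187), and this passed without replicate 2 of the exercised knockout-labelled libraries (adjusted p 0.0393). For Timp3, an inhibitor that stays bound to the matrix, it was 0.22 (SE 0.07, edgeR adjusted p 0.256). Timp3 passed without replicate 2 of the exercised vehicle libraries (0.0359) and with the slow-fibre score as a covariate (0.0461).

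No matrix gene was called for a difference between the exercise responses of both treatments, against 0 of all genes and 0 matrix genes by DESeq2. An unadjusted p under 0.05 was held by 6 of the 66, a larger share than the 5.83% of all genes, which was not tested. The smallest p belonged to Aebp1, whose fitted log2 fold change was less negative after exercise by 0.61 (SE 0.15, unadjusted p 6.47e-04, edgeR adjusted p 0.671). Timp2 followed at 0.48 (SE 0.16, edgeR adjusted p 0.728), with 83.9 ± 10.95 and 75.7 ± 8.50 CPM in vehicle at rest and after exercise and 71.01 ± 7.68 and 89.4 ± 13.5 CPM in knockout-labelled muscle. Col4a1 was at -0.60 (SE 0.23, edgeR adjusted p 0.780).

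Chains of types I, IV and VI, and Col1a2 with Col3a1, varied together between libraries of the same group, while the type V pair passed for r only, and not without the 2 farthest libraries. After subtraction of each group's mean, Col4a1 and Col4a2 had a Pearson r of 0.91 and a Spearman rho of 0.93 over 20 libraries (permutation p 1e-05 for each, the smallest that 100000 permutations give, adjusted 5.00e-05 over 5 pairs). Col1a1 and Col1a2 had an r of 0.88 and a rho of 0.83 (permutation p 4.00e-05 and 1.00e-04, adjusted 6.67e-05 and 1.67e-04). Col6a1 and Col6a2 had an r of 0.84 and a rho of 0.83 (permutation p 4.00e-05 for each, adjusted 6.67e-05 and 1.00e-04). Col1a2 and Col3a1 had an r of 0.79 and a rho of 0.67 (permutation p 3.10e-04 and 0.00345, adjusted 3.87e-04 and 0.00431). With the 2 libraries farthest from the median of the x axis left out, these r were 0.86, 0.79, 0.81 and 0.67. Col5a1 and Col5a2 had an r of 0.52 and a rho of 0.45 (permutation p 0.0362 and 0.0766, adjusted by the same values), and an r of 0.48 without the 2 farthest libraries, which no longer passed (permutation p 0.0854). Col4a1 and Col4a2 lie next to each other and share 22 exon bases on opposite strands. The 5 pairs were chosen after the files were seen, and pairs of other matrix genes were not compared with them.

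Aebp1, Col1a1 and Col4a1 were set against the scores of 4 cell types in the same way, 12 relations in all. Col4a1 went with the endothelial score, at an r of 0.84 and a rho of 0.72 (permutation p 7.70e-04 and 0.00267, adjusted 0.00924 and 0.0320). Without the 2 farthest libraries the r was 0.58 and no longer passed (permutation p 0.0219, adjusted 0.173), so the call did not hold without those 2. With library size scaling and all 20 libraries the r was 0.89 and passed (adjusted permutation p 0.00300). Col4a1 and the slow-fibre score had an r of 0.61 and a rho of 0.52 (permutation p 0.0307 and 0.0576, adjusted 0.150 and 0.221; r 0.67 without the 2 farthest). Col1a1 and the tendon score had an r of 0.52 and a rho of 0.50 (permutation p 0.0375 and 0.0474, adjusted 0.150 and 0.221; r 0.55 without the 2 farthest). For Aebp1 the r ran from -0.38 with fibroblast markers to 0.25 with tendon markers, and the rho from -0.45 to 0.22, and none passed (adjusted permutation p from 0.304 to 0.958 for r and from 0.221 to 0.804 for rho). With library size scaling the Aebp1 r was -0.07 with fibroblast markers and 0.41 with tendon markers, and none of the 4 passed (adjusted permutation p from 0.159 to 0.778).

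**Figure D5:**
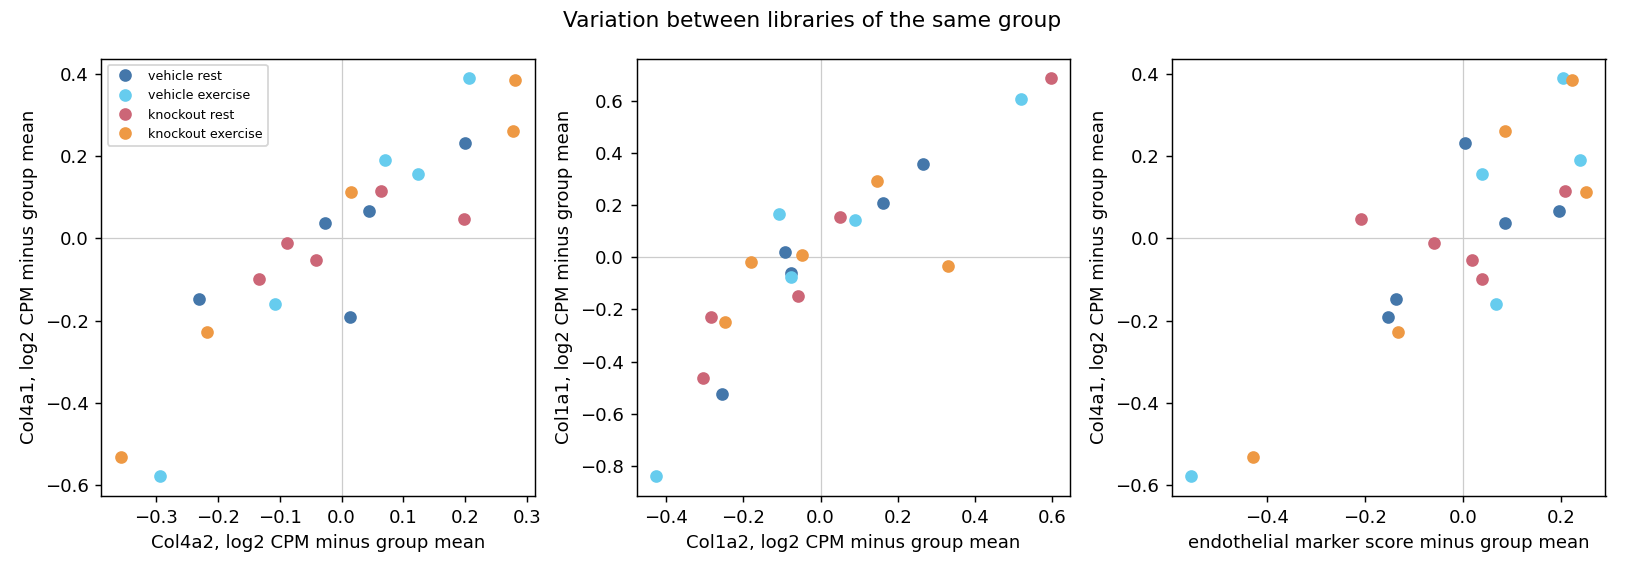
Deviation of each of 20 libraries from its group mean in log2 CPM, for Col4a1 against Col4a2 (r 0.91), Col1a1 against Col1a2 (r 0.88) and Col4a1 against the endothelial marker score (r 0.84, mean log2 CPM of 9 genes). Points follow a rising line in each panel, and in the endothelial panel 2 exercised libraries lie far to the lower left.

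Genes that process, receive or regulate the matrix were followed in 4 lists. Of 23 collagen assembly and secretion genes tested, none was called at rest or after exercise between the treatments, where 3.86% and 6.42% of all genes were. On average 1 of the 23 was called, against 11% of all genes: Colgalt1, a collagen galactosyltransferase, fell on average by 0.18 on the log2 scale (SE 0.06, edgeR adjusted p 0.0426). That call was lost without any of 12 single libraries, which were replicates 3, 4 and 5 of vehicle at rest, 1, 2, 4 and 5 of exercised vehicle, 1, 4 and 5 of knockout-labelled at rest and 2 and 4 of exercised knockout-labelled (adjusted p up to 0.0843) and in 4 of 10 other settings (up to 0.114). P4ha1, a catalytic subunit of collagen prolyl hydroxylase, rose with exercise in vehicle from 32.9 ± 5.67 to 56.9 ± 11.6 CPM (SD, n = 5), a log2 fold change of 0.79 (SE 0.15, edgeR adjusted p 0.00830). In knockout-labelled muscle it stood at 37.97 ± 6.43 CPM at rest and 46.4 ± 6.48 CPM after exercise, and the averaged exercise value was 0.54 (SE 0.10, edgeR adjusted p 0.0138). P4ha1 was not called for exercise in knockout-labelled muscle or for a difference between the responses of both treatments, where 0 of all genes were. Of 31 other matrix glycoproteins and proteoglycans, 25 were above 0 on average (median 0.16), against 52% of all genes. None was called higher and 1 was called lower on average, against 5.18% and 5.78% of all genes. That was Efemp2, which helps assemble elastic fibres, at -0.51 (SE 0.12, edgeR adjusted p 0.00851).

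Of 23 genes of TGF-beta signalling, a main inducer of collagen genes, 1 rose and 3 fell on average between the treatments, where 5.18% of all genes were called higher and 5.78% lower. The ligand Tgfb3 rose, from 33.04 ± 4.69 to 45.4 ± 2.65 CPM at rest and from 27.9 ± 4.81 to 45.9 ± 7.36 CPM after exercise (SD, n = 5 each). Its log2 fold change was 0.46 (SE 0.12, edgeR adjusted p 0.0322) at rest, 0.71 (SE 0.12, edgeR adjusted p 6.03e-04) after exercise and 0.59 (SE 0.09, edgeR adjusted p 4.49e-05) on average. The call at rest was lost with library size scaling (0.0640) and without vehicle replicate 1, 2, 4 or 5 or knockout-labelled replicate 1, 2 or 4 (adjusted p up to 0.103). Smad3, which carries the signal to the nucleus, fell between vehicle and knockout-labelled muscle after exercise, from 135 ± 29.2 to 79.5 ± 10.4 CPM, at -0.77 (SE 0.15, edgeR adjusted p 0.00206), and on average at -0.64 (SE 0.10, edgeR adjusted p 1.88e-04). Tgif1, a co-repressor of Smad proteins, fell in the same comparison, at -0.95 (SE 0.23, edgeR adjusted p 0.0109), and on average, at -0.60 (SE 0.16, edgeR adjusted p 0.0188). In vehicle Tgif1 rose with exercise, at 0.95 (SE 0.23, edgeR adjusted p 0.0456), a call lost without vehicle replicate 1, 2, 4 or 5 at rest or 1, 3 or 4 after exercise (adjusted p up to 0.187) and in 4 of 11 other settings (up to 0.214). The co-receptor Tgfbr3 fell on average, at -0.28 (SE 0.08, edgeR adjusted p 0.0294), a call lost without vehicle replicate 3 or 5 at rest, vehicle replicate 4 or 5 after exercise or knockout-labelled replicate 1 at rest (up to 0.0655) or with library size scaling (0.0592).

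Of 24 matrix receptor genes, 4 rose and 2 fell on average between the treatments, beside 5.18% of all genes called higher and 5.78% lower. Dag1, the dystroglycan that binds laminin, rose between vehicle and knockout-labelled muscle after exercise, from 192 ± 8.73 to 259 ± 14.8 CPM (SD, n = 5 each), at 0.43 (SE 0.07, edgeR adjusted p 5.97e-04), and on average at 0.32 (SE 0.05, edgeR adjusted p 1.36e-04). The sarcoglycan Sgcd, which stands beside dystroglycan in the fibre membrane, rose on average, at 0.80 (SE 0.22, edgeR adjusted p 0.0180). It also rose at rest, at 1.24 (SE 0.31, edgeR adjusted p 0.0228), a call lost without vehicle replicate 3 or 5 or knockout-labelled replicate 2, 3 or 4 at rest (adjusted p up to 0.0851). The integrin chain gene Itga9 rose on average, at 0.57 (SE 0.15, edgeR adjusted p 0.0172), and Itgb6 fell, at -0.54 (SE 0.13, edgeR adjusted p 0.00660). Ddr1, a receptor kinase that binds collagen, fell from 16.9 ± 2.06 to 10.99 ± 1.80 CPM at rest, at -0.62 (SE 0.12, edgeR adjusted p 0.00315), and on average at -0.39 (SE 0.09, edgeR adjusted p 0.00397). With exercise none of the 24 was called in either treatment, against 0.804% of all genes in vehicle and 0 in knockout-labelled muscle.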

How the data were processed

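RNA of 20 gastrocnemius samples, 5 in each of 4 groups, was sequenced, and the authors deposited 1 table of whole-number counts per gene symbol, taken as unnormalized because library totals differ. Trizol and a Qiagen kit served for extraction of total RNA and an Illumina kit for the libraries, per the labels' protocols. The submitters' processing notes list STAR 2.7.8a, Partek and DESeq2, and the builds mm10 and GRCm39. The roles of these tools, the counting program, its annotation and its use of strand are not given in the sources used here, so no coordinate was taken from the count table.

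Groups came from the treatment labels and replicate numbers from the titles. Genes were filtered with filterByExpr (minimum count 10), which left 13560, and library factors were computed by TMM, the trimmed mean of M-values. The edgeR 4.0.16 quasi-likelihood model (R 4.3.3, limma 3.58.1) had 1 mean per group over all 20 libraries, and 7 contrasts were tested: knockout-labelled against vehicle at rest, after exercise and averaged, exercise against rest in vehicle, in knockout-labelled muscle and averaged, and the interaction. The p-values were adjusted by Benjamini-Hochberg over 13560 genes, and 0.05 was the threshold. SEs were derived from the F statistics, and marker scores are mean log2 CPM with a prior count of 2. Fold changes compare the labelled groups and are on the log2 scale of the fitted model. Correlations across libraries used 100000 permutations within groups, and fewer where the 2 farthest libraries were left out or scaling was by library size. Exon lengths and neighbours came from GENCODE M21 and promoter windows from RefSeq (GRCm38.p6), which need not match the authors' annotation. The closest pair of libraries in each group differed by a chi-square per degree of freedom of 3.80 to 11.2, so none was treated as a duplicate.

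The matrix genes, roles, pathway lists and marker lists were chosen with earlier results of these data known. Genes named in full are those called in any contrast, the 3 smallest p-values of each contrast without a call, and the 10 highest levels per length. From the pathway lists, called genes were named, up to 6 per list. Some genes that met these rules are not reported here. Other genes are named as examples of their role. Fmod and Thbs4 are in both the tendon markers and the glycoprotein list. The fit was tested on simulated data. Alternatives were other scalings (RLE, upper quartile, library size), DESeq2 1.42.0, other filters on low counts, only the groups of a contrast, a replicate block, slow-fibre or fibroblast scores as covariates, mitochondrial genes left out, and each library left out.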

Additional observations from a re-analysis of the deposited data

Results flagged for a closer look

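In each of the 4 groups, the 5 CPM values of the 16 genes named in full were searched for a library far from the other 4 (its gap to the nearest, divided by the group's range, above 0.71). Of 64 such series 7 held one, and chance gives about 1 in 20.

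Lamb2 had 3: vehicle after exercise replicate 2 was low at 81.2 CPM, where the nearest library held 97.6. Knockout-labelled replicate 5 at rest was high at 140.5 CPM, with the nearest at 119.6, and knockout-labelled replicate 4 after exercise was high at 135 CPM, with the nearest at 123. Vehicle after exercise replicate 2 also stood apart in Col7a1, high at 59.5 CPM with the nearest at 38.0, and in Timp3, low at 94.1 CPM with the nearest at 137. That library held the lowest CPM of any library for several other matrix genes, though not for all. Among them were Dcn (131 CPM), Nid1 (26.6), Fn1 (17.0) and Col1a1 (10.5). Its summed endothelial markers (144 CPM) were also the lowest of any library. Timp3 was low in vehicle at rest replicate 4, at 103.1 CPM against 119.1 in the nearest library. Mmp11 was low in knockout-labelled replicate 4 after exercise, at 317 CPM against 545.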

How the results depend on the processing

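Over the alternatives run, the Aebp1 falls, the averaged calls of Col24a1, Loxl3, Sparc and Lamb2, the Col24a1 call at rest and the Lamb2 call after exercise held. Fitting only the groups at rest gave 5 matrix genes at rest in place of 3, adding Col4a1 and Col4a2. With the slow-fibre score as a covariate 2 matrix genes passed for averaged exercise in place of 0. The cause was not tested. Over the settings that kept all libraries, 3 to 5 matrix genes were called at rest, 2 to 4 after exercise and 5 to 9 on average. With each library left out in turn, 2 to 3 were called at rest, 2 to 4 after exercise, 5 to 8 on average, 0 to 1 for averaged exercise, and 0 for exercise in vehicle, exercise in knockout-labelled muscle and the interaction. Without the 2 farthest libraries, r was -0.0189 for Col4a1 and fibroblast markers and -0.0645 for Aebp1 and tendon markers, where it had been 0.29 and 0.25, and 0.58 for Col4a1 and endothelial markers, where it had been 0.84.

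With the replicate number as a block, 3 matrix genes were called at rest, 3 after exercise, 6 on average, and 0 for the 3 exercise comparisons and the interaction. The averaged calls of Col7a1 (edgeR adjusted p 0.0653) and Lamc1 (0.0747) were lost and Lama5 was gained. The labels do not say what a number shares: same-numbered libraries had correlations of deviations from -0.448 to 0.437, and 0 to 2 of 5 pairs per contrast correlated best with their own number.

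Genes near 10 counts, such as Mmp28, Col8a2 and Col11a1, are limited by depth.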

Other observations

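The matrix genes differed in how steady they were between libraries of 1 group. Among the 35 with a mean of at least 10 CPM, the coefficient of variation within groups ran from 7.48% for Lamb2 to 31.6% for Lum, the proteoglycan lumican, with a median of 18.9%. Aebp1 stood at 11.7%.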
